A study of Mus musculus with 18 samples.

Results

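The p53 gene Trp53 and 9 genes that p53 switches on were examined in the liver of mice whose ribosomes make errors. The 10 genes (Trp53, Mdm2, Ccng1, Cdkn1a, Btg2, Bax, Trp53inp1, Phlda3, Sesn2 and Gdf15) were chosen by symbol as readouts of p53 activity and senescence, and each symbol matched 1 of the 22524 Ensembl genes counted. All 10 were among the 13353 genes with enough reads to be tested. The question was whether a faulty ribosomal protein was accompanied by p53 activity, since a disturbed ribosome is a known trigger of p53.

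The series held RNA-seq counts from the liver of 18 female C57BL/6 mice aged 15 months, with 1 library for each mouse. The 10 A226Y mice were heterozygous for a knock-in of Rps2-A226Y, an amino acid exchange in a protein of the small ribosomal subunit that lowers the accuracy of decoding. The 8 WT mice had unaltered Rps2 and, like the A226Y mice, carried CMV-Cre, which expresses Cre recombinase in all tissues. The A226Y allele becomes active only after Cre removes a stop cassette flanked by loxP sites. This removal was incomplete, so the liver of an A226Y mouse was a mosaic of cells with the active mutant allele and cells with a silent one, and the counts do not separate mutant from normal Rps2 mRNA. Mice are named by genotype and library number.

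In a resting cell, p53 is made continuously and is destroyed just as continuously, because the ubiquitin ligase MDM2 tags it for the proteasome. When ribosome assembly fails, free ribosomal proteins such as RPL5 and RPL11 bind MDM2, p53 accumulates, and it binds a paired sequence element near its target genes. The targets include brakes on the cell cycle, inducers of cell death and, in Mdm2 itself, a negative feedback. p53 activity is controlled mainly through the protein, so the transcripts of its targets are a usual readout of it, whereas the Trp53 transcript is not. Several targets, among them Cdkn1a, Btg2, Sesn2 and Gdf15, also respond to other signals, such as fasting, glucocorticoids and the transcription factor ATF4.

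The sequences around the transcription starts were read from RefSeq windows on GRCm38.p6, each running from 250 bases before the start to 50 after it. Windows were found for 9 of the 10 genes, 11 windows in all, and none for Trp53inp1. Each was searched for the p53 response element by its consensus, whose 10-base unit reads alike on both strands. An exact unit occurred in 5 of the 11 windows and in 8.36% of all 32841 windows. A full element, a pair of units spanning 20 bases with at most 1 mismatch, occurred in 22 windows (0.067%), of which 2 belonged to Cdkn1a and Ccng1. The element of Cdkn1a lay at −51 to −32 from the upstream one of its 2 listed starts, within the printed stretch chr17:29090923-29090952 on the plus strand, and that of Ccng1 lay at −195 to −176 from its start, within chr11:40755457-40755486 on the minus strand. Mdm2 held a single unit at −186 to −177 from the start, within chr10:117710925-117710954 on the minus strand, and Bax and Trp53 each held 1 as well. The stretches of the genes with a full element, and of Mdm2 because its transcript is described most closely, are printed 5′ to 3′ with the matched bases in capitals.
Cdkn1a: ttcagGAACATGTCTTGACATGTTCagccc
Ccng1: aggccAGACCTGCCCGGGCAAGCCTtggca
Mdm2: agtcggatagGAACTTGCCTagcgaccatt
Sequence outside these windows, and pairs with bases between the units, were not searched. A gene without a full element here may therefore hold one elsewhere. A match describes letters only, and binding of p53 was not measured in these mice.

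Libraries held 23850565 to 62126131 counted reads, with medians of 32058379 in A226Y and 31702989 in WT. Levels are given as CPM, the usual unit of counts relative to the library total, with the total corrected by edgeR's TMM factor, and differences as log2 fold changes of A226Y against WT from edgeR's quasi-likelihood test, adjusted by Benjamini-Hochberg over all tested genes and called at an adjusted p under 0.05. Over all tested genes, 14.3% were called, 7.27% higher and 7.03% lower in A226Y. The 8 hepatocyte markers summed to 70600 to 169000 CPM in every library, which fits the label of liver tissue. A226Y 29 and WT 33 stood apart from the other mice of their genotype, with a root mean square deviation from the group mean of 0.552 and 0.454 log2 units against 0.239 to 0.370 in the other 16. In bulk tissue, fewer cells of a type and less RNA per cell cannot be told apart.

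The targeted gene was checked first. Rps2 (chr17:24718116-24721929, GRCm38), which encodes the ribosomal protein uS5, measured 46.9, 72.5 and 83.0 CPM (lowest, median and highest) in A226Y and 104, 109 and 143 CPM in WT. All 10 A226Y mice lay below every WT mouse. The log2 fold change was −0.73 (SE 0.11, adjusted p = 0.000772), and the exact permutation test gave p = 2.29e-05, the smallest that the 43758 divisions of the mice allow.

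Of the 10 p53 genes, 3 (30%) were called in A226Y liver, beside 14.3% of all tested genes. Mdm2, Trp53inp1 and Cdkn1a rose, beside 7.27% of all genes called higher, and none fell. DESeq2 called the same 3 genes and none lower, and at an unadjusted p under 0.05 the counts were also 3 higher and 0 lower, beside 29.6% of all tested genes. In none of the 10 did all A226Y mice lie above all WT mice, as they did in 0.352% of all tested genes, or below them (0.285%). The log2 fold change was above 0 in 8 of the 10, as in 49.0% of all tested genes, and its median was 0.20 against 0.00 for all tested genes. Without A226Y 29, the mouse that stood apart, the median was 0.07 and 2 of the 10 were called, beside 19.2% of all genes. Only Mdm2 was called when A226Y 7 or WT 4, 13, 14, 21 or 24 was left out. The other 7 genes did not pass the test. With 4 surrogate variables estimated from the data added to the model, none of the 10 was called, while the count over all genes went from 1910 to 50.

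**Figure D1:**
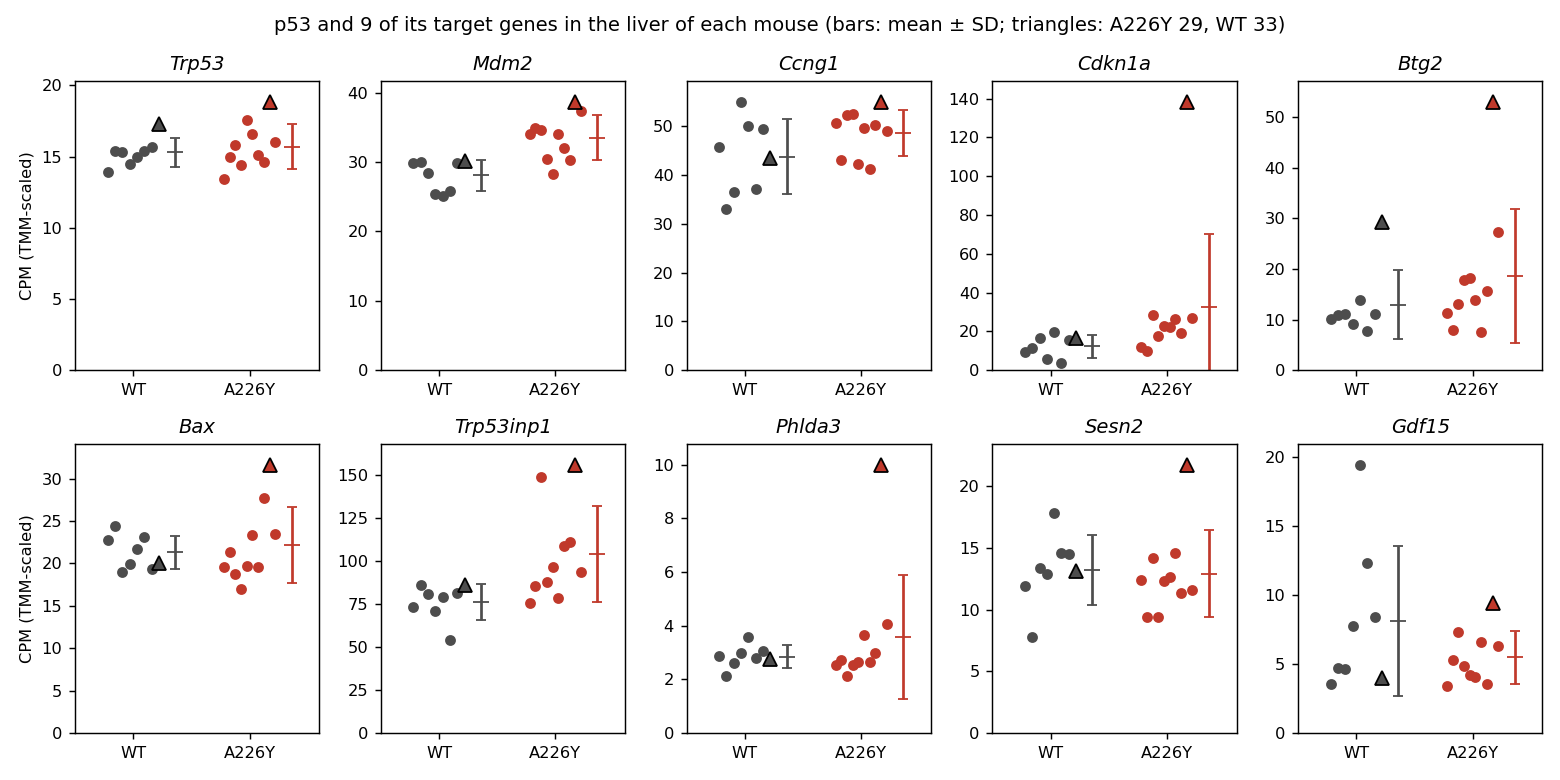
Level of each of the 10 genes in each mouse, in TMM-scaled CPM on linear axes that start at 0, for 8 WT (grey) and 10 A226Y (red) mice. Triangles mark A226Y 29 and WT 33, and the bars beside the points give the mean ± SD of the genotype. In the panels of Cdkn1a, Btg2 and Phlda3 the A226Y triangle lies far above the other points, whereas the A226Y points of Mdm2 are shifted together.

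Trp53, the gene of p53 itself (chr11:69580359-69591873), did not differ detectably between the genotypes. It measured 13.4, 15.5 and 18.8 CPM in A226Y and 13.9, 15.3 and 17.3 CPM in WT. The ranges overlapped almost completely, at a log2 fold change of 0.04 (95% interval −0.09 to 0.17, adjusted p = 0.729). Its spread was among the smallest of the 10, with a coefficient of variation of 10.1% in A226Y and 6.54% in WT.

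Mdm2, the ubiquitin ligase that holds p53 down and is itself a p53 target (chr10:117688875-117710758), showed a small and regular increase. It measured 28.3, 34.0 and 38.6 CPM in A226Y and 25.1, 29.1 and 30.2 CPM in WT. In all, 9 of the 10 A226Y mice lay above every WT mouse, and A226Y 15 lay within the WT range. The means were 33.5 ± 3.22 CPM (SD, n = 10) and 28.1 ± 2.24 CPM (SD, n = 8), a log2 fold change of 0.25 (SE 0.06, 95% interval 0.12 to 0.38) with an adjusted p of 0.0132 in edgeR and an exact permutation p of 0.00107. The call was kept with each of the 18 mice left out in turn, at adjusted p from 0.00784 to 0.0319. Without A226Y 29 the log2 fold change was 0.23 (adjusted p = 0.0147). With the surrogate variables it was 0.17 (adjusted p = 0.251).

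Ccng1 encodes cyclin G1, a p53 target that recruits a phosphatase to MDM2 (chr11:40748552-40755311). It measured 41.2, 50 and 54.9 CPM in A226Y and 33, 44.6 and 54.9 CPM in WT. All 10 A226Y mice lay within the WT range. The log2 fold change of 0.15 (95% interval −0.04 to 0.34) did not pass the test (adjusted p = 0.273).

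Among the genes that stop the cell cycle, Cdkn1a had the largest log2 fold change of the 10, with a coefficient of variation of 116% in A226Y and 46.9% in WT. Cdkn1a encodes p21, the inhibitor of cyclin-dependent kinases through which p53 arrests cells (chr17:29090976-29100727). It measured 9.82, 22.5 and 138 CPM in A226Y and 3.46, 13.5 and 19.5 CPM in WT. Above every WT mouse lay 6 A226Y mice, the other 4 lay within the WT range, and A226Y 29 stood far above all. The 138 CPM of A226Y 29 rested on 4706 reads and was 10.2 times the WT median, and the next A226Y mouse measured 28.5 CPM. The means were 32.4 ± 37.7 CPM in A226Y (SD, n = 10) and 12.3 ± 5.77 CPM in WT (SD, n = 8). The difference was 1.40 on the log2 scale (SE 0.46, 95% interval 0.45 to 2.36, adjusted p = 0.0457), with an exact permutation p of 0.0130.

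The size of that difference rested on 1 mouse. Without A226Y 29 the A226Y mean was 20.7 ± 6.52 CPM (SD, n = 9), and the log2 fold change of 0.75 no longer passed (adjusted p = 0.0654, exact permutation p = 0.0204). The lowest WT mice were WT 24 and WT 14, with 3.46 and 5.54 CPM, and the highest was WT 21, with 19.5 CPM. The call was kept only when the mouse left out was A226Y 3, 5, 15 or 23, and was lost in the other 14 fits, with adjusted p from 0.0302 to 0.0903 over all 18. All of these fits gave a higher level in A226Y, by 0.75 to 1.53 on the log2 scale. The call was also lost with limma-voom (1.16, adjusted p = 0.0745), without the filter on low counts (1.39, adjusted p = 0.0536), with A226Y 29 and WT 33 both left out (0.82, adjusted p = 0.058) and with the surrogate variables (0.59, adjusted p = 0.505).

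Btg2, an antiproliferative gene that also promotes mRNA deadenylation (chr1:134075170-134079120), measured 7.56, 14.8 and 52.9 CPM in A226Y and 7.77, 11.1 and 29.2 CPM in WT. The highest values of the genotypes came from A226Y 29 and WT 33, the libraries that stood apart. The genotypes differed by a log2 fold change of 0.53 (95% interval −0.18 to 1.23, adjusted p = 0.306). It was 0.19 without A226Y 29 (adjusted p = 0.637), 0.81 without WT 33 (adjusted p = 0.0932) and 0.48 without both (adjusted p = 0.12).

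**Figure D2:**
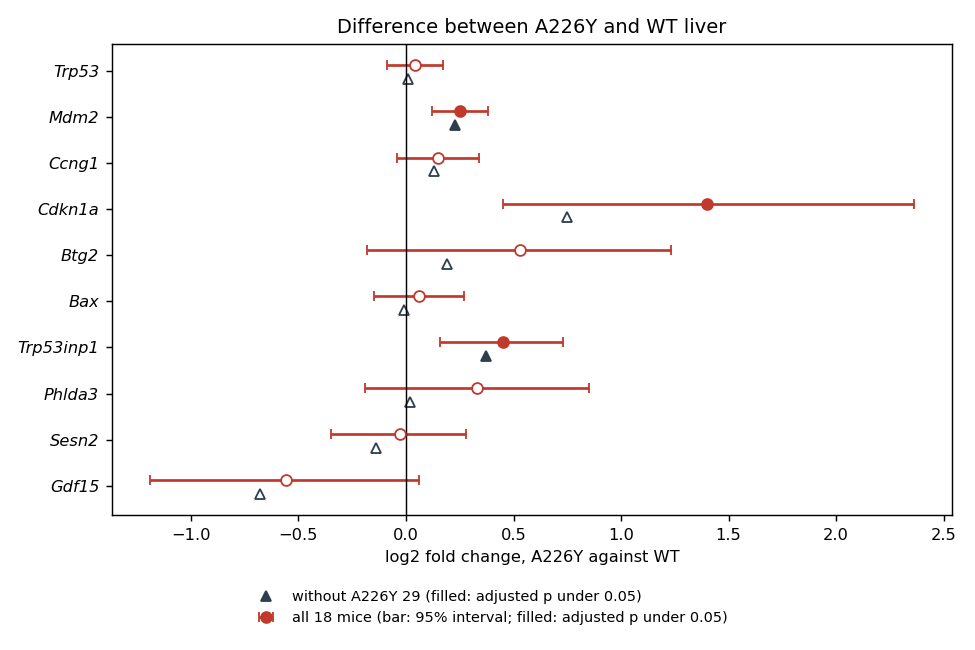
Log2 fold change of A226Y against WT for each of the 10 genes. Circles with bars give the estimate and its 95% interval from all 18 mice, triangles give the estimate without A226Y 29, and filled symbols passed at an adjusted p under 0.05. Mdm2 and Trp53inp1 are filled in both fits, whereas Cdkn1a goes from 1.40 to 0.75 and loses its call.

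Among the genes tied to cell death, 1 passed the test. Trp53inp1, a stress protein that promotes p53 phosphorylation, autophagy and cell death (chr4:11156431-11174379), measured 75.9, 95.1 and 156 CPM in A226Y and 54.3, 79.9 and 86.2 CPM in WT. Above every WT mouse lay 7 A226Y mice, with A226Y 29 and A226Y 7 (149 CPM) highest, and A226Y 3, 5 and 18 lay within the WT range. The means were 104 ± 28 CPM (SD, n = 10) and 76.5 ± 10.5 CPM (SD, n = 8). This was a log2 fold change of 0.45 (SE 0.14, 95% interval 0.16 to 0.73, adjusted p = 0.0338), with an exact permutation p of 0.00683. Without A226Y 29 it was 0.37 and still passed (adjusted p = 0.0389). The call was lost when A226Y 7 or WT 4, 13, 14, 21 or 24 was left out, with adjusted p up to 0.0715, and also when gene length (0.40, adjusted p = 0.0556) or GC content (0.38, adjusted p = 0.0908) was corrected for and with the surrogate variables (0.21, adjusted p = 0.562).

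Bax encodes the pore-forming protein through which mitochondria release cytochrome c (chr7:45461697-45466898). It measured 17.0, 20.5 and 31.6 CPM in A226Y and 19.0, 20.9 and 24.4 CPM in WT. A226Y mice lay on both sides of the WT range, and the medians nearly coincided. A log2 fold change of 0.06 was fitted (95% interval −0.15 to 0.27, adjusted p = 0.727), and it was −0.01 without A226Y 29.

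Phlda3, a p53 target that competes for membrane lipids with the kinase AKT (chr1:135766119-135769136), was the least abundant of the 10. It measured 2.11, 2.69 and 9.99 CPM in A226Y and 2.13, 2.83 and 3.58 CPM in WT. A226Y 29 was the only mouse above 5 CPM, and the A226Y median lay below that of WT. The log2 fold change of 0.33 (95% interval −0.19 to 0.85, adjusted p = 0.386) was 0.02 without that mouse (adjusted p = 0.949).

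The stress-response members did not pass the test. Sesn2, an inhibitor of the growth regulator mTORC1 (chr4:132492032-132510501), measured 9.40, 12.4 and 21.7 CPM in A226Y and 7.74, 13.3 and 17.8 CPM in WT. All A226Y mice except A226Y 29 lay within the WT range. The fitted log2 fold change was −0.03 (95% interval −0.35 to 0.28, adjusted p = 0.913). Gdf15, a secreted stress hormone that reduces food intake (chr8:70629393-70632456), measured 3.38, 5.07 and 9.40 CPM in A226Y and 3.52, 6.22 and 19.4 CPM in WT. Its highest values were in WT mice, with WT 21 on top, and the ranges overlapped widely. The log2 fold change of −0.56 (95% interval −1.19 to 0.06, adjusted p = 0.215) was −0.24 without WT 21 (adjusted p = 0.581).

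Per kilobase of transcript, the WT mean levels ran from 19.4 CPM per kb for Bax through Trp53inp1 (14.1), Ccng1 (12.5), Mdm2 (8.94), Cdkn1a (5.91), Gdf15 (5.23), Btg2 (4.71), Trp53 (4.68) and Sesn2 (3.81) to 1.99 CPM per kb for Phlda3. Bax lay above Trp53inp1 in every WT mouse. Between all other neighbours in this order the ranges over the 8 WT mice overlapped. The genes that passed the test were neither the most nor the least abundant of the 10.

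A single mouse led most of the 10 genes. A226Y 29 had the highest level of all 18 mice for 8 of them, that is for all but Ccng1 and Gdf15, whereas it was the highest in 16.3% of all tested genes and the lowest in 16.4%. Relative to the WT median it measured 10.2 times as much Cdkn1a, 4.79 times as much Btg2, 3.52 times as much Phlda3 and 1.95 times as much Trp53inp1, but only 1.22 times as much Trp53. Its Rps2 level, 80.6 CPM, was among the higher ones of the A226Y mice. The summed level of the 10 genes was 235, 269 and 532 CPM in A226Y and 197, 227 and 265 CPM in WT, and the 532 CPM belonged to A226Y 29.

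**Figure D3:**
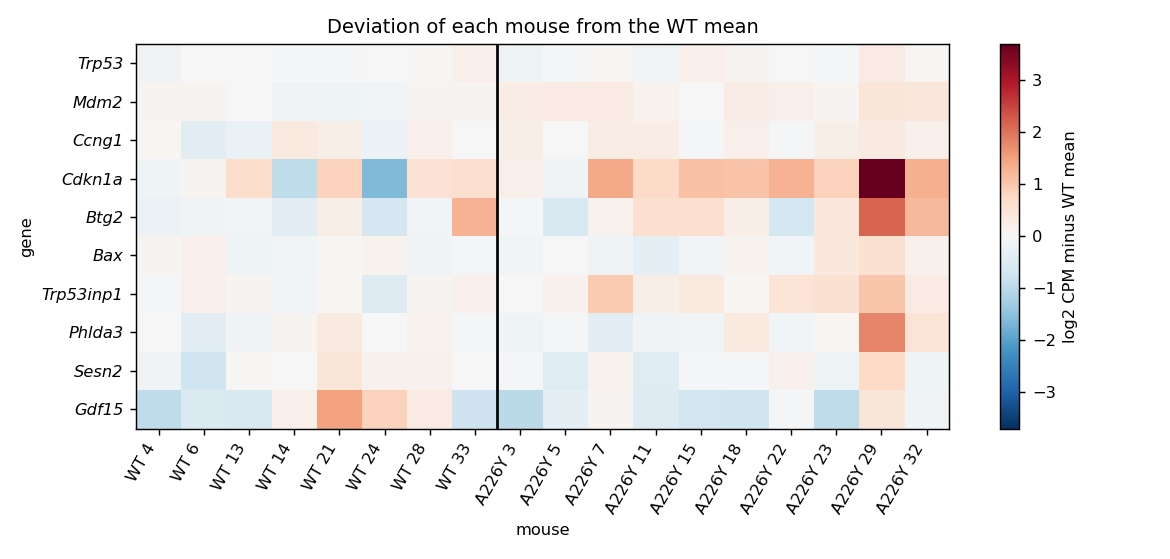
Log2 CPM of each of the 10 genes in each mouse minus the WT mean of that gene, with 8 WT mice to the left of the line and 10 A226Y mice to the right. The column of A226Y 29 is the reddest, at 3.68 for Cdkn1a, and the row of Mdm2 is pale red in nearly every A226Y mouse.

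Other gene groups were unusual in A226Y 29 too. The summed level of 9 Kupffer cell and macrophage markers was 339, 457 and 1260 CPM in A226Y and 504, 725 and 1040 CPM in WT, with the 1260 CPM in A226Y 29. Sums were taken over all listed genes, tested or not. Those of the 22 immediate early genes (643 CPM) and the 13 glucocorticoid targets (15600 CPM) were also the highest of all mice in A226Y 29. The sums of the 8 hepatocyte markers (70600 CPM) and the 18 circadian clock genes (821 CPM) were the lowest. Single genes of these lists went the other way. Tat (5810 CPM) and 4 of the 18 clock genes were highest in A226Y 29, and Alb (48000 CPM) made up most of its hepatocyte sum. No marker was at 0 in all mice. The part of these groups in the high p53 target levels of that mouse was not tested.

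Correlations between the members were computed within each genotype, with and without that mouse. Within A226Y, all 45 pairwise correlations of log2 CPM were positive, with a median Pearson r of 0.52 (0.04 to 0.89). None passed adjustment over the 45 pairs by Pearson's r, 14 had an unadjusted permutation p under 0.05, and by Spearman's rho only Phlda3 with Bax passed (rho 0.93, permutation p = 0.00027, adjusted p = 0.0121), at r = 0.82 (permutation p = 0.00372, adjusted p = 0.0558) and r = 0.66 without A226Y 29 and 32. Without A226Y 29, 29 of the 45 were positive, the median was 0.10 and none passed (0 by r and 1 by rho at an unadjusted permutation p under 0.05). In WT, 25 of the 45 were positive, the median was 0.06 and none passed (4 by r and 5 by rho unadjusted).

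The members were also compared with Rps2 across mice. In A226Y all 10 correlations with Rps2 were positive, with a median r of 0.40, and none passed adjustment over the 10 (2 had an unadjusted permutation p under 0.05). The highest was that of Ccng1 (r = 0.80, permutation p = 0.00906, adjusted p = 0.0906, and rho = 0.50, permutation p = 0.143, adjusted p = 0.415), and r was 0.50 without A226Y 22 and 5, the mice farthest from the median of Rps2. In WT 3 of the 10 were positive, the median was −0.35 and none passed (0 by r and 1 by rho unadjusted).

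The wider p53 programme did not follow the 3 called genes. Of 51 tested targets outside the 10, 1 rose and 3 fell (7.84% called, beside 14.3% of all genes), with a median log2 fold change of −0.03. Gadd45a, a growth arrest and DNA damage gene, fell by 0.77 on the log2 scale (adjusted p = 0.0142). Pml, the organiser of nuclear bodies, fell by 0.37 (adjusted p = 0.0421), and Ninj1, a membrane protein of plasma membrane rupture, fell by 0.26 (adjusted p = 0.0179). The call of Pml was lost without WT 33, with the correction for GC content and with library size as the only scaling. That of Ninj1 was lost with the correction for gene length and with library size as the only scaling. Without A226Y 29, 7 of the 51 were called, 2 higher and 5 lower, beside 8.92% of all genes higher and 10.3% lower (19.2% in all) in that fit.

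Regulators and partners of p53 were called in both directions, 3 higher and 3 lower of 24 tested, beside 7.27% and 7.03% of all genes. The split was 6 higher and 1 lower with library size as the only scaling, where 67.9% of all called genes were higher. With A226Y 29 and WT 33 both left out it was 6 higher and 2 lower, where 48.7% of all called genes were higher. Cdkn2a, the locus of the MDM2 inhibitor ARF and of the senescence marker p16, whose transcripts the counts do not separate, fell from 1.33 ± 0.317 to 0.844 ± 0.275 CPM (log2 fold change −0.66, adjusted p = 0.0384). The checkpoint kinase gene Chek2 fell by 0.54 (adjusted p = 0.0476) and the MDM2 partner gene Trim28 by 0.28 (adjusted p = 0.0159), whereas the checkpoint kinase gene Atr rose by 0.31 (adjusted p = 0.0451). The other higher genes, the deacetylase gene Sirt1 (0.28, adjusted p = 0.00866) and the ubiquitin ligase gene Huwe1 (0.21, adjusted p = 0.0227), were picked for mention once their values were known. Without WT 33 the calls of Cdkn2a and Chek2 were lost, those of Cdkn2a and Atr with the length and with the GC offset, those of Chek2 and Huwe1 with the length offset and that of Trim28 with the GC offset. Of 22 genes of ribosomal proteins and nucleolar factors that bind MDM2 or its inhibitors, none rose and 2 fell. The share called was 9.09%, beside 14.3% of all genes. The genes that fell were Rps27 (−0.41, adjusted p = 0.0435) and the nucleolar factor Nop53 (−0.26, adjusted p = 0.0127). Counts of ribosomal protein genes, including Rps27, Rpl5 and Rps2, are uncertain because such genes can have near-identical copies. The effect of copies was not tested. WT means of the listed ribosomal protein genes ran from 1.77 CPM for Rpl11 to 387 CPM for Rps3, with Rpl5 at 13.6 CPM. At an unadjusted p under 0.05, 3 of the 22 were higher, and DESeq2 called none higher. Without A226Y 29, Rpl5 was called higher (0.24, adjusted p = 0.049, against 0.21 and 0.113 with all mice), and with the length offset Rpf2 was, both picked for mention once their values were known.

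**Figure D4:**
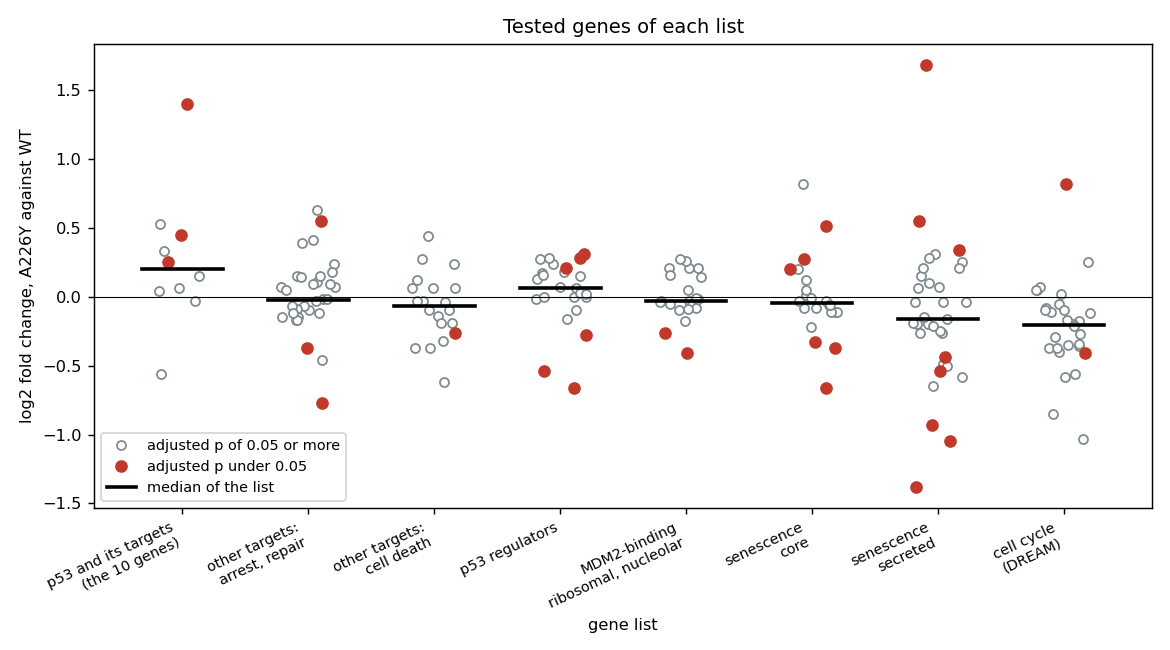
Log2 fold change of A226Y against WT for each tested gene of 8 lists, with the genes called at an adjusted p under 0.05 in red and the median of each list as a black line. The median is highest for the 10 p53 genes, at 0.20 (0.07 without A226Y 29), and the lists of secreted factors and of cell cycle genes have medians below 0.

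The senescence lists gave a mixed picture. In the core list of kinase inhibitors and marks of the nucleus and lysosome, 3 of 22 rose and 3 fell, beside 7.27% and 7.03% of all genes. The list joins genes of opposite roles, such as Cdkn2a and its silencer Bmi1, so these counts give no direction of senescence. The count of 6 was 2 with the GC offset and 3 without A226Y 7 or WT 13, 14 or 24. Bmi1, a Polycomb gene that silences Cdkn2a, rose from 22.9 ± 2.32 to 32.6 ± 3.23 CPM (log2 fold change 0.51, adjusted p = 0.000701). Besides Cdkn2a, the lamin gene Lmnb1 (−0.37, adjusted p = 0.0287) and Glb1, the gene of the enzyme behind senescence-associated β-galactosidase staining (−0.33, adjusted p = 0.0107), fell. Among 33 tested genes of secreted factors, 3 rose and 5 fell, beside the same shares of all genes, with a median of −0.16. The chemokine genes Cxcl1 (−1.38, adjusted p = 0.0121), Cxcl10 (−1.05, adjusted p = 0.0121) and Cxcl9 (−0.93, adjusted p = 0.0147) fell. Igfbp1, a hepatocyte gene that responds to fasting and insulin, rose by 1.68 (adjusted p = 0.0283), with 685 CPM in A226Y 29, and by 1.05 without that mouse (adjusted p = 0.0384).

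Genes that p21 represses through the DREAM complex numbered 29 tested, with 1 called higher and 1 lower and a median of −0.20. The share called was 6.9%, beside 14.3% of all genes. Ccne1, the cyclin that starts DNA replication, rose by 0.82 (adjusted p = 0.0202), and Cenpa, the centromeric histone gene, fell by 0.41 (adjusted p = 0.00478). Without A226Y 29, 5 of the 29 (17.2%) were called, a share near the 19.2% of all genes in that fit, 1 higher (Ccne1) and 4 lower (Mki67, Top2a, Mcm2 and Cenpa). Mki67, Top2a and Mcm2 were picked for mention once their values were known. Their levels were low, with means of 1.04, 0.675 and 2.47 CPM in A226Y and 1.55, 1.22 and 3.16 CPM in WT.

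Lists of other signals that act on the same genes were called in part. The share called was 22.2% of ATF4 targets, 23.1% of glucocorticoid targets and 17.6% of clock genes. Over all tested genes it was 14.3%, with 7.27% higher and 7.03% lower. Of 18 targets of ATF4 and the integrated stress response, 2 rose and 2 fell, the latter including Chac1, a glutathione-degrading enzyme gene (−1.10, adjusted p = 0.0234), and Eif4ebp1 (−0.33, adjusted p = 0.00253), whereas Trib3 (0.82, adjusted p = 0.0476) and Atf5 (0.51, adjusted p = 0.0402) rose. The count of 4 ranged from 1 to 5 with single mice left out. It was 1 (Eif4ebp1) without WT 33 and 2 without A226Y 5, 18, 23 or 32 or WT 13, 14, 21, 24 or 28. In these fits none was called higher, except that 1 was higher and 1 lower without WT 13. Of 13 glucocorticoid targets, 3 rose and none fell (none lower at an unadjusted p under 0.05, and 1 lower by DESeq2), namely Tat (0.85, adjusted p = 0.0331), Sgk1 (0.62, adjusted p = 0.00935) and Klf9 (0.48, adjusted p = 0.0238). Without A226Y 29, 6 of the 13 (46.2%) were called, beside 19.2% of all genes in that fit. Tat, Sgk1 and Klf9 were higher and Mt1, Mt2 and Lcn2 lower. The lower ones were picked for mention once their values were known. Among 17 clock genes, Clock rose by 0.61 (adjusted p = 0.000932) and Bhlhe40 fell by 0.37 (adjusted p = 0.0347). The count of called clock genes was 3, and 6 (35.3%) without A226Y 29, beside 19.2% of all genes in that fit. Of 20 immediate early genes none was called by edgeR or DESeq2, with 2 lower at an unadjusted p under 0.05, and the smallest p belonged to Fosb (−1.25, adjusted p = 0.0950) and Klf2 (−0.38, adjusted p = 0.0984). Klf2 was called lower without A226Y 29 (−0.50, adjusted p = 0.0076), and Fosb and Klf2 were with A226Y 29 and WT 33 both left out. The part of these signals in the levels of Mdm2, Trp53inp1 and Cdkn1a was not tested.

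Markers of other liver cells moved with the genotype in part. The share called was 11.1% for Kupffer cells and macrophages, 37.5% for stellate cells and fibroblasts and 50% for hepatocytes. Over all tested genes it was 14.3%, with 7.27% higher and 7.03% lower. The macrophage marker Clec4f was the 1 of 9 Kupffer cell and macrophage genes called, lower by 0.65 (adjusted p = 0.0261), and without A226Y 29 the count was 6, all lower, beside 10.3% of all genes lower in that fit. It was 3 without A226Y 5 or WT 6, 2 without WT 24 and 0 without WT 14. Of 8 stellate cell and fibroblast genes, 3 collagen genes fell. Col1a1 fell by 0.77 (adjusted p = 0.0162), Col3a1 by 0.60 (adjusted p = 0.00516) and Col1a2 by 0.33 (adjusted p = 0.0397). The call of Col1a2 was lost without WT 33, with the GC offset and with library size as the only scaling. In contrast, 4 of the 8 had a log2 fold change above 0. Of these, Dcn, mentioned once its value was known, was called higher by DESeq2 but not by edgeR (0.18, unadjusted p = 0.0195). Of 8 hepatocyte genes, Tat and Cps1 (0.55, adjusted p = 0.0137) rose and Asgr1 (−0.31, adjusted p = 0.0155) and Serpina1a (−0.30, adjusted p = 0.0358) fell, and 2 of the 8 were called without A226Y 7 or 32 or WT 14, 24 or 33. No gene of the 10 T and B cell, 6 endothelial and 5 cholangiocyte markers was called by edgeR or DESeq2, and 1 of each list had an unadjusted p under 0.05. The genes of smallest p in these lists were Cd3g (−0.65, adjusted p = 0.125) and Nkg7 (−0.58, adjusted p = 0.215), Clec4g (−0.21, adjusted p = 0.110) and Lyve1 (0.33, adjusted p = 0.385), and Krt19 (0.53, adjusted p = 0.147) and Epcam (0.36, adjusted p = 0.440). Nkg7 was called lower without A226Y 29 (−0.82, adjusted p = 0.0411), and the cholangiocyte marker Spp1, added once its value was known, was called higher with the surrogate variables (0.89, adjusted p = 0.044). The part of these cell types in the results on the p53 genes was not tested.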

How the data were processed

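Liver RNA from 18 mice was sequenced by the study in 1 library for each mouse. The deposited values are read counts per Ensembl gene, whole numbers with no normalization by the authors. The paper's methods name RSEM with an Ensembl annotation of GRCm37, whereas the submitters' processing notes name fastp, STAR, featureCounts and GRCm38, and which of them gave the deposited counts is not given in the sources used here, nor is whether strand was used. Reads shared with near-identical or overlapping genes may therefore be assigned differently (Cdkn1a, Sesn2 and Bax each overlap 1 annotated gene that has no counts here). Gene symbols and GRCm38 coordinates came from GENCODE M21 (22214 of 22524 IDs matched).

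Genes that reached 10 counts in 50% or more of the A226Y or of the WT mice were tested with edgeR 4.0.16 (quasi-likelihood, TMM) in R 4.3.3 over 10 A226Y and 8 WT mice, with no covariates, following the filter and comparison of the study. Single genes were also tested with a two-sided exact permutation test on log2 CPM (prior count 2), and correlations within a genotype with permutations. Each library is a separate mouse, and none of the 73 pairs of libraries of one genotype agreed within sampling noise. Scripts were tested on simulated data. Alternatives were RLE, upper-quartile and library-size scaling, no filter, edgeR's own filter, DESeq2 1.42.0, limma-voom 3.58.1, 4 surrogate variables (sva 3.50.0), length and GC offsets, each mouse left out, and A226Y 29 and WT 33 left out together, the last added after seeing the data. Outside the 10 genes, up to 4 called genes with the largest change were named from each list, or the 2 of smallest p where none was called, and some genes that this rule names are not reported here. The 10 genes and the lists were chosen with earlier results of these data known.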

Additional observations from a re-analysis of the deposited data

Results flagged for a closer look

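Of 22 sets of values (Rps2 and the 10 p53 genes in each genotype), 5 held a mouse far from the others by Dixon's test at the 95% level, where chance gives about 1 in 20. Cdkn1a reached 138 CPM, Phlda3 9.99 CPM and Sesn2 21.7 CPM in A226Y 29, each the highest of the 10 A226Y mice. Btg2 reached 29.2 CPM in WT 33, the highest of the 8 WT mice. Trp53inp1 was at 54.3 CPM in WT 24, the lowest of the WT mice. WT 24 was also the lowest mouse for Cdkn1a, at 3.46 CPM.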

How the results depend on the processing

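With 4 surrogate variables, 50 genes were called, 0 of the 10 p53 genes, 0 other p53 targets, 0 regulators of p53, 0 MDM2-binding factors, 0 DREAM genes, 1 gene of the senescence core and 2 secreted factors. Library size as the only scaling shifted the median of all genes to 0.039 log2 units and the share of called genes that were higher from 50.8% to 67.9%, and it called 1 MDM2-binding factor. Without a filter, 3 regulators and 1 MDM2-binding factor were called. DESeq2 called 7 other p53 targets, the length offset 2 regulators and the GC offset 2 genes of the senescence core. Without A226Y 29 and WT 33, 7 other p53 targets and 4 DREAM genes were called. The cause of these changes was not tested.

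When single mice were left out, the called genes ranged from 1255 (without WT 14) to 2560 (without A226Y 29). The ranges were 1 to 3 for the 10 genes (1 without A226Y 7 or WT 4, 13, 14, 21 or 24), 3 to 7 for other p53 targets (7 without A226Y 29), 2 to 7 for regulators (2 or 3 without A226Y 3, 7, 11 or 23 or WT 14, 21 or 24), 1 to 3 for MDM2-binding factors (1 without A226Y 3, 7, 11 or 18 or WT 4, 13, 24 or 28), 3 to 7 for the senescence core (3 without A226Y 7 or WT 13, 14 or 24), 7 to 11 for secreted factors, 2 to 5 for DREAM genes (5 without A226Y 29), and 0 to 0 for correlations that passed by Pearson's r. Of the 10 genes, 3 changed sign, none of them called in any fit. Sesn2 went from −0.03 to 0.01 with library size only, 0.15 with surrogate variables, 0.02 with the GC offset, 0.01 without A226Y 5 or 11 and 0.04 without WT 21 (−0.14 to 0.04 over single mice left out). Bax went from 0.06 to −0.03 with surrogate variables, −0.01 without A226Y 29 (−0.01 to 0.10 over single mice left out, and −0.02 as the difference of mean log2 CPM) and −0.02 without both mice. Trp53 went from 0.04 to −0.01 with surrogate variables. No paired analysis was made because the labels record no pairs of mice between the genotypes. Low counts limited Phlda3 most, with 63 to 340 reads in a library.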
